A study of Mus musculus with 6 samples.

Results

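The genes described here are 33 genes of the autophagy machinery and its cargo receptors, chosen by name from textbook knowledge of the pathway. Earlier results of these data were known when they were chosen. All 33 were found among the 29587 gene rows of a messenger RNA table from mouse osteoblasts. The table holds 3 libraries of apoptotic osteoblasts from old mice (replicates 1 to 3) and 3 libraries of apoptotic osteoblasts from young mice (replicates 1 to 3). Cells grown out of bone fragments were passaged as bone marrow mesenchymal stem cells, kept in osteogenic medium for 3 days, and killed by 0.5 h of ultraviolet light, old and young alike. The labels give no age in numbers, no strain, no genetic change and no untreated osteoblasts, and they are silent on whether each library had its own animals or culture. The study concerns the clearance of apoptotic osteoblasts in aging, and the 2 groups were set against each other for transcripts that follow donor age.

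Autophagy encloses portions of cytoplasm in a double membrane and delivers them to lysosomes. A kinase complex around ULK1 starts the process, a lipid kinase complex containing Beclin 1 marks the site, and ATG9A and ATG2 supply membrane and lipid. A chain of conjugating enzymes then couples small ubiquitin-like proteins of the ATG8 family to the membrane, where they bind receptors that carry cargo such as ubiquitylated proteins or mitochondria. In bone, osteoblasts and osteocytes are known to use autophagy, and several of the same proteins act when phagocytes digest engulfed dead cells.

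Values are RPKM, reads scaled to gene length and library size, as deposited, and levels of different genes are compared only on this scale. Fold changes compare old with young after log2(RPKM + 1) and were tested with limma across all 12015 genes that had at least 1 RPKM in at least 3 libraries. A gene was called at a Benjamini-Hochberg adjusted p under 0.05. With no known biological replicates, p-values reflect variation from library to library, some of it possibly technical. In a bulk sample, fewer cells of a kind and less RNA per cell cannot be told apart.

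Depth was 75456146 to 84535939 reads in old libraries and 64881180 to 82917726 reads in young libraries. The members drew between 100 reads (Atg10) and 49348 reads (Sqstm1) per library. Young replicate 1 was the library of lowest depth and stood apart from the others. Across genes, its log2 values correlated with those of young replicates 2 and 3 at Pearson's r of 0.949 and 0.962. With the old libraries its values correlated at 0.959 to 0.968. Young replicates 2 and 3 correlated with each other at 0.996, and the old libraries with each other at 0.995 to 0.997 (across genes, which are not independent replicates). Of 9 osteoblast markers, 7 passed the expression filter, among them the collagen gene Col1a1 at 1528 ± 31.8 RPKM in old and 1550 ± 424 RPKM in young (SD, n = 3 each). The osteoblast transcription factor Sp7 was called lower in old, at 4.9 ± 0.0281 RPKM in old and 8.44 ± 0.567 RPKM in young, and the bone matrix gene Spp1 was called higher, at 732 ± 68.6 RPKM in old and 290.4 ± 75.9 RPKM in young (SD, n = 3 each, limma adjusted p = 0.0186 and 0.0307 for Sp7 and Spp1). Without 1 library, tried after these calls were seen, the call of Sp7 held without young replicate 1 or 2 and that of Spp1 without young replicate 1, and each was lost without any other library (limma adjusted p up to 0.163 and 0.201). Both calls were also lost with upper-quartile scaling (limma adjusted p = 0.0641 and 0.131) and with the replicate block (limma adjusted p = 0.192 and 0.105), and that of Spp1 with median-of-ratios scaling or no filter (limma adjusted p = 0.0722 and 0.0785). Runx2 was lower in old without overlap and not called, at 3.91 ± 0.203 RPKM in old and 5.11 ± 0.809 RPKM in young. Col1a2, Ibsp and Sparc were not called. Their means were 733, 20 and 1037 RPKM in old and 859, 28.4 and 1094 RPKM in young. Alpl and Bglap were under 1 RPKM in both groups. Without young replicate 1, limma called Runx2, Sp7, Col1a1, Col1a2 and Ibsp lower in old and Spp1 higher, and did not call Sparc. That fit called 13.2% of all tested genes higher and 19.4% lower. The part of these marker differences in the results on autophagy genes was not tested. The cartilage genes Sox9 and Col2a1 were at 16.3 ± 0.942 and 38.6 ± 0.897 RPKM in old and at 17.3 ± 3.97 and 40.7 ± 17 RPKM in young. Neither was called with all 6 libraries, and both were called lower in old without young replicate 1 (limma adjusted p = 0.0244 and 0.00913). Of 6 leukocyte markers Lyz2 alone passed the filter, at 8.14 ± 0.512 RPKM in old and 7.3 ± 0.762 RPKM in young (SD, n = 3 each). Cd68 averaged 0.859 ± 0.23 RPKM in old and 0.761 ± 0.246 RPKM in young, and Csf1r 0.455 ± 0.084 RPKM in old and 0.479 ± 0.124 RPKM in young, while Ptprc averaged 0.00045 RPKM in old and 0.00094 RPKM in young. Over all tested genes limma called 177 higher in old (1.47%) and 12 lower (0.0999%), 1.57% in both directions.

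Group means of most autophagy genes lay close together in old and young osteoblasts, within 15% of each other in 25 of 32 tested members and in 69% of all tested genes, and Sqstm1 was the member that stood out. It was the only member called with all 6 libraries, and it was higher in old. Of the 33 members, 32 passed the filter on low values. Of these 32, 1 was called higher and 0 were called lower, with 4 at an unadjusted p under 0.05, against 11.2% of all tested genes. The log2 fold change was above 0 in 21 of the 32 members, and in 51.2% of all tested genes. The median of the 32 was 0.02, beside 0.01 over all tested genes. Among them, 28 had a log2 fold change within 0.25 of zero, where most of all tested genes also lay. Groups did not overlap in 6 members that were higher in old and in 4 that were lower, which was so for 10.6% and 10.2% of all tested genes. Atg10, a conjugating enzyme gene, was the member that did not pass the filter, at 0.853, 0.824 and 0.978 RPKM in old and 1.1, 0.873 and 0.974 RPKM in young.

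**Figure D1:**
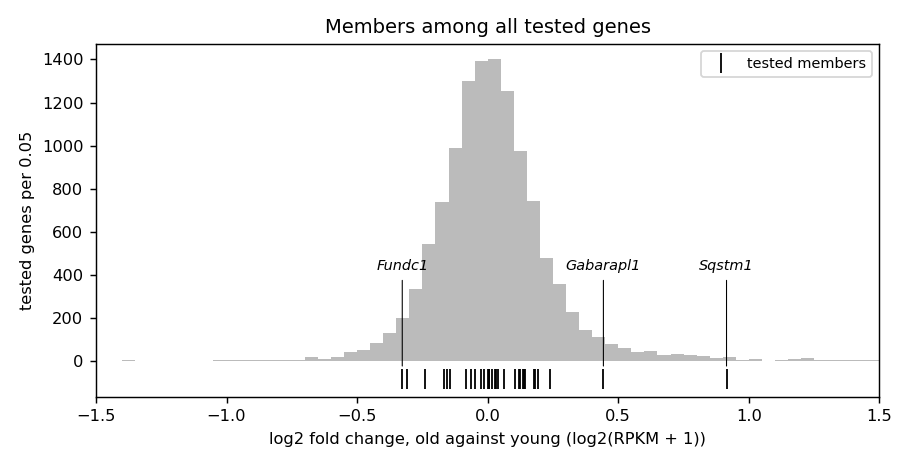
The distribution of log2 fold changes (old against young, x axis) is shown for all tested genes as grey bars (number of genes per 0.05, y axis), with the 32 tested members as ticks below. Of the members 28 lie within 0.25 of zero, where most of all tested genes also lie. Sqstm1 lies farthest out of the members at 0.91, and 69 tested genes lie beyond the axis.

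The cargo receptors link ubiquitylated cargo to the autophagosome membrane, and Sqstm1, which encodes p62, is the best known of them. The p62 protein is also degraded by autophagy, and it binds KEAP1, the inhibitor of the stress factor NRF2. Sqstm1 (chromosome 11, 50199366 to 50210827, minus strand, mm10) was at 174, 170 and 175 RPKM in old replicates 1, 2 and 3, and at 83.1, 102 and 89.9 RPKM in young replicates 1, 2 and 3. All old libraries lay far above all young libraries. The mean was 173 ± 2.4 RPKM in old and 91.6 ± 9.48 RPKM in young (SD, n = 3 each), a ratio of 1.89. The log2 fold change was 0.91 ± 0.10 (SE, limma adjusted p = 0.0109). Without young replicate 1 it was 0.85 ± 0.06 (SE, limma adjusted p = 0.000409). The call was lost when young replicate 3, or old replicate 1, 2 or 3, was left out (limma adjusted p = 0.091, 0.114, 0.0926 and 0.108), while the log2 fold change stayed between 0.85 and 0.99 whichever library was left out. Sqstm1 was the most abundant member in 5 of 6 libraries. Young replicate 1 was the exception, where Atg3 ranked above it. The exons of Sqstm1 share 17.3% of its length with 3010026O09Rik on the opposite strand, which was at 2.68 RPKM in old and 3.31 RPKM in young by mean.

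By the same values, and so not as a separate result, Sqstm1 took a larger share of the cargo receptor transcripts in old. It made up 67.8, 67.7 and 66.7% of the summed RPKM of the 4 receptors in old replicates 1, 2 and 3, and 53.3, 52.6 and 50.6% in young replicates 1, 2 and 3. The sum itself was 257 ± 5.27 RPKM in old and 176 ± 19 RPKM in young (SD, n = 3 each). None of the other receptors was called. Nbr1, a receptor that resembles p62 and works with it, was at 14.2, 13.4 and 13.8 RPKM in old and 15.8, 15.8 and 15.1 RPKM in young. The groups did not overlap, with old lower, but the log2 fold change of -0.17 ± 0.08 was not called (SE, limma adjusted p = 0.54). Tax1bp1, another ubiquitin-binding receptor, was at 47.4, 46.2 and 51.4 RPKM in old and 40.3, 53.3 and 49.2 RPKM in young, with overlapping groups. Its log2 fold change was 0.03 ± 0.13 (SE, limma adjusted p = 0.988). Optn, which encodes the receptor optineurin, averaged 21.5 ± 0.555 RPKM in old and 21.1 ± 3.73 RPKM in young (SD, n = 3 each).

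**Figure D2:**
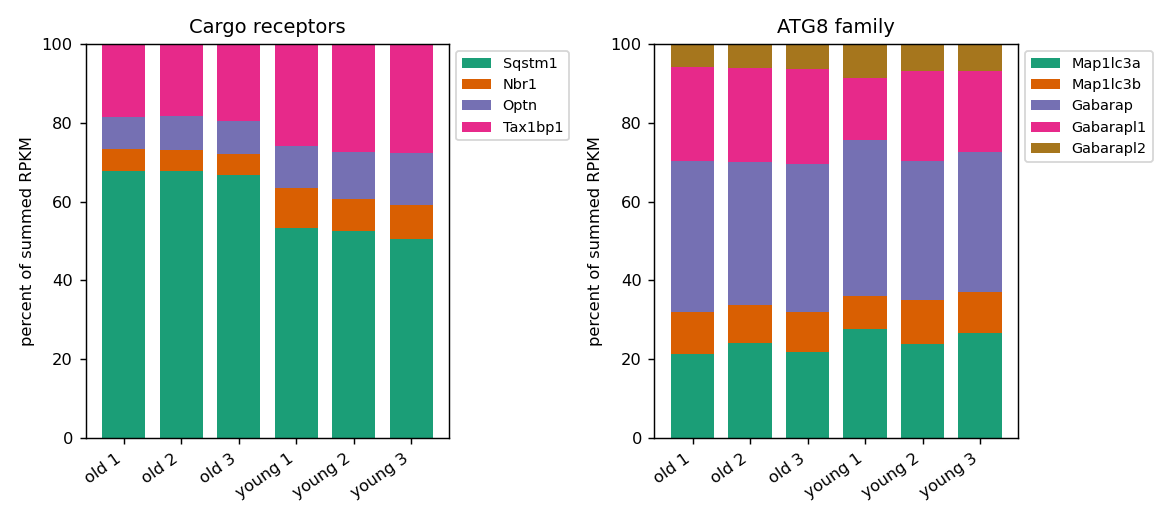
Each bar is a library and each colour a gene, as percent of the summed RPKM of the 4 cargo receptors (left) and the 5 ATG8 family genes (right). Sqstm1 takes 66.7 to 67.8% of the receptor sum in old libraries and 50.6 to 53.3% in young libraries, and Gabarapl1 takes 23.9 to 24.1% of the ATG8 sum in old and 15.8 to 22.9% in young.

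The promoter windows of Sqstm1, Gabarapl1 and Ulk2 are shown because these 3 genes had the smallest p-values among the members. They run from 250 bases before to 50 bases after the RefSeq transcript start and are written 5′ to 3′ on the gene's strand (RefSeq, build GRCm38.p6). Capitals mark matches, on either strand, to the TATA box letters TATAAA, the GC box GGGCGG and the antioxidant response element core TGACNNNGC, which NRF2 is known to bind.
Sqstm1 (chr11:50210771-50211070, minus strand): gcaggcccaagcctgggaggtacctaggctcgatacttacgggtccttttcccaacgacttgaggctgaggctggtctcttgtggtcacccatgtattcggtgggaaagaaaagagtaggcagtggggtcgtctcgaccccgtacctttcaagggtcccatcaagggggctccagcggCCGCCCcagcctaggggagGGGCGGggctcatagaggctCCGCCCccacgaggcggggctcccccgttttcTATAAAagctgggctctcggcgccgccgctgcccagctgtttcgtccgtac
Gabarapl1 (chr6:129532942-129533241, plus strand): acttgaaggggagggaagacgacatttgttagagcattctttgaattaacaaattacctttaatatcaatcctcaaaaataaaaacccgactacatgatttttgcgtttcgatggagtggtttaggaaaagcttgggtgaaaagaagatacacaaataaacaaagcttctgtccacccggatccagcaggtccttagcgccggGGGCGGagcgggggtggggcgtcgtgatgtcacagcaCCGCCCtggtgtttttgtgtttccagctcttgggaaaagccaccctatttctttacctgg
Ulk2 (chr11:61855043-61855342, minus strand): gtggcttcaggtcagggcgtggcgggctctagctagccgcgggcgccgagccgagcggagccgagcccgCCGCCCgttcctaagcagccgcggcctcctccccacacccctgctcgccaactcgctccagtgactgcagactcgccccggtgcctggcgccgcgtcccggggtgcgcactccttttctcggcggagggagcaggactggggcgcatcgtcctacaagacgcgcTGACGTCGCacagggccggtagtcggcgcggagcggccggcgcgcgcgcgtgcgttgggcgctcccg
The Sqstm1 window held 3 GC boxes and a TATAAA match that spans the annotated start, the Gabarapl1 window held 2 GC boxes, and the Ulk2 window held 1 GC box and 1 antioxidant response element core. Of 27 members with a promoter sequence, 19 (70.4%) held a GC box, beside 38.2% of 27025 genes, and 2 (Sqstm1 and Atg4a) held TATAAA, beside 15.7% of genes. The antioxidant response element core was in 4 members (14.8%), beside 14% of genes. The E-box letters CACGTG, contained in the element that TFEB is known to bind, were in Atg14, Atg3, Atg5 and Atg7 (14.8% of members, beside 8.09% of genes). The cyclic AMP response element TGACGTCA was in Atg5 alone among the members (3.7%, beside 2.03% of genes), and the FOXO letters GTAAACA were in 0 members, beside 4.05% of genes. The 27025 genes were not limited to those that passed the expression filter, and the part of expression level in these shares was not tested. A match in this window describes letters and is not evidence of binding.

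The ATG8 family consists of the LC3 genes Map1lc3a and Map1lc3b and the GABARAP genes Gabarap, Gabarapl1 and Gabarapl2, whose products are attached to the autophagosome membrane and bind receptors such as p62. None of the 5 was called, and Gabarapl1 had the smallest p-value among them. Gabarapl1 was at 26.6, 27.5 and 26.8 RPKM in old replicates 1, 2 and 3, and at 16.8, 21.6 and 20.8 RPKM in young replicates 1, 2 and 3. The groups did not overlap, and old was 1.37 times young by mean. The log2 fold change was 0.44 ± 0.11 (SE, limma adjusted p = 0.184). Without young replicate 1, which was the lowest library for this gene, it was 0.34 ± 0.05 (SE, limma adjusted p = 0.00539). The exons of Gabarapl1 share 570 bases, 28.3% of its length, with 1700101I11Rik on the opposite strand. That gene was at 9.07 RPKM in old and 6.62 RPKM in young by mean, and whether reads were counted by strand is not stated.

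Gabarap was the most abundant of the ATG8 genes. It was at 42.5, 41.7 and 42 RPKM in old and at 42.1, 33.4 and 35.9 RPKM in young, so that young replicate 1 lay within the old range and young replicates 2 and 3 lay below it. Its log2 fold change was 0.18 ± 0.11 with all 6 libraries (SE, limma adjusted p = 0.684) and 0.27 ± 0.05 without young replicate 1 (SE, limma adjusted p = 0.0114). Map1lc3b, the LC3 gene most used as an autophagy marker, was at 11.7, 11.2 and 11.1 RPKM in old and 8.83, 10.5 and 10.5 RPKM in young. Its groups did not overlap, and its log2 fold change was 0.18 ± 0.10 (SE, limma adjusted p = 0.641). Map1lc3a was at 23.6, 27.8 and 24.3 RPKM in old and 29.3, 22.5 and 27 RPKM in young, with overlapping groups. For Map1lc3a the log2 fold change was -0.05 ± 0.13 (SE, limma adjusted p = 0.978). Gabarapl2 averaged 6.87 ± 0.378 RPKM in old and 7.41 ± 1.42 RPKM in young (SD, n = 3 each). The summed level of the family was 113 ± 2.49 RPKM in old and 100.4 ± 5.86 RPKM in young (SD, n = 3 each).

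**Figure D3:**
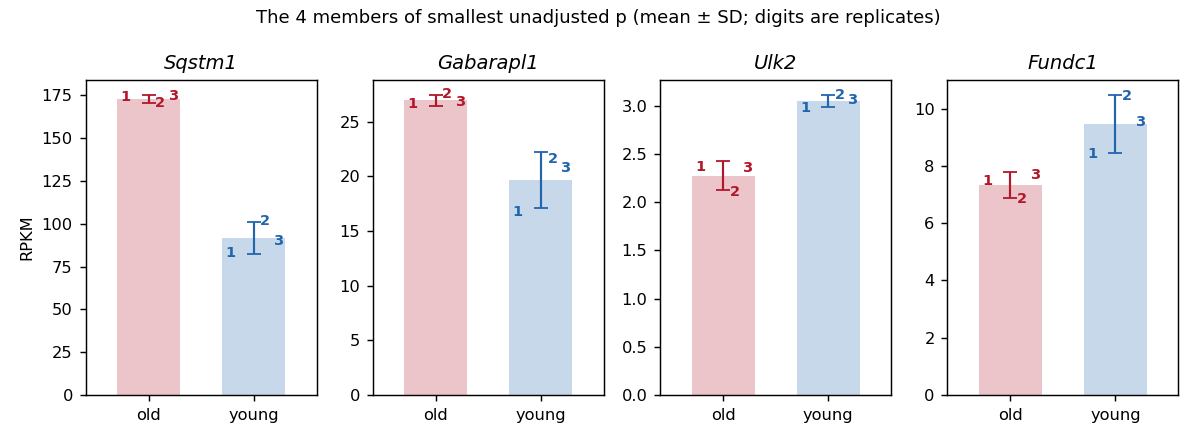
RPKM of the 4 members of smallest unadjusted p in old (red) and young (blue) osteoblasts. Bars are means, error bars SD (n = 3) and digits the replicate of each library, and in all 4 genes the groups do not overlap. Sqstm1 averages 173 RPKM in old and 91.6 RPKM in young and is the 1 of the 4 that was called with all 6 libraries.

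The initiating kinase complex consists of the kinases ULK1 and ULK2 with ATG13, ATG101 and the scaffold RB1CC1, also named FIP200. Of its 5 genes none was called. Ulk2 was at 2.37, 2.1 and 2.35 RPKM in old and 2.98, 3.11 and 3.06 RPKM in young, so every old library lay below every young library. Its log2 fold change was -0.31 ± 0.08 (SE, limma adjusted p = 0.186), and -0.32 ± 0.07 without young replicate 1 (SE, limma adjusted p = 0.0148). The related kinase gene Ulk1 averaged 2.55 ± 0.0814 RPKM in old and 2.72 ± 0.308 RPKM in young (SD, n = 3 each), with overlapping groups. Rb1cc1 averaged 7.41 ± 0.473 RPKM in old and 8.28 ± 0.444 RPKM in young (SD, n = 3 each). Atg101 was the most abundant gene of the complex, at 21.3 ± 1.08 RPKM in old and 21.3 ± 3.86 RPKM in young, and Atg13 was the least abundant, at 1.58 ± 0.0484 RPKM in old and 1.42 ± 0.352 RPKM in young (SD, n = 3 each).

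In the lipid kinase complex, Becn1, which encodes Beclin 1, was at 13, 12.6 and 12.9 RPKM in old and 11.8, 13.2 and 13.6 RPKM in young, and the old values lay inside the young range. The exons of Becn1 share 43.9% of its length with Cntd1 on the opposite strand, so its level is uncertain. Atg14, the subunit that directs the complex to autophagosome formation, was at 2.88, 2.4 and 2.65 RPKM in old and 0.952, 3.32 and 2.83 RPKM in young. Its spread lay in young replicate 1, which was the lowest of the 6 libraries by far and differed from the mean of young replicates 2 and 3 by -1.06 on the log2(RPKM + 1) scale. For Atg14 the log2 fold change was 0.19 ± 0.30 with all 6 libraries (SE, limma adjusted p = 0.957) and -0.16 ± 0.09 without young replicate 1 (SE, limma adjusted p = 0.181).

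Genes of membrane supply and lipid transfer were not called. These are Atg9a, a lipid scramblase in vesicles that seed the membrane, Atg2a and Atg2b, which transfer lipid, and Wipi1 and Wipi2, which bind the lipid made by the Beclin 1 complex. Wipi2 had groups that did not overlap, at 3.6 ± 0.031 RPKM in old and 3.24 ± 0.198 RPKM in young (SD, n = 3 each). Wipi1 averaged 13 ± 0.806 RPKM in old and 12.9 ± 1.33 RPKM in young. Atg9a, Atg2a and Atg2b were at 1.61 ± 0.061, 1.62 ± 0.0607 and 3.22 ± 0.108 RPKM in old and at 1.63 ± 0.468, 1.65 ± 0.52 and 3.06 ± 0.487 RPKM in young (SD, n = 3 each). In all 5 genes young replicate 1 was the lowest library. Atg9a shares 31.8% of its exon length with Gm29253 on the same strand, so its level is uncertain.

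**Figure D4:**
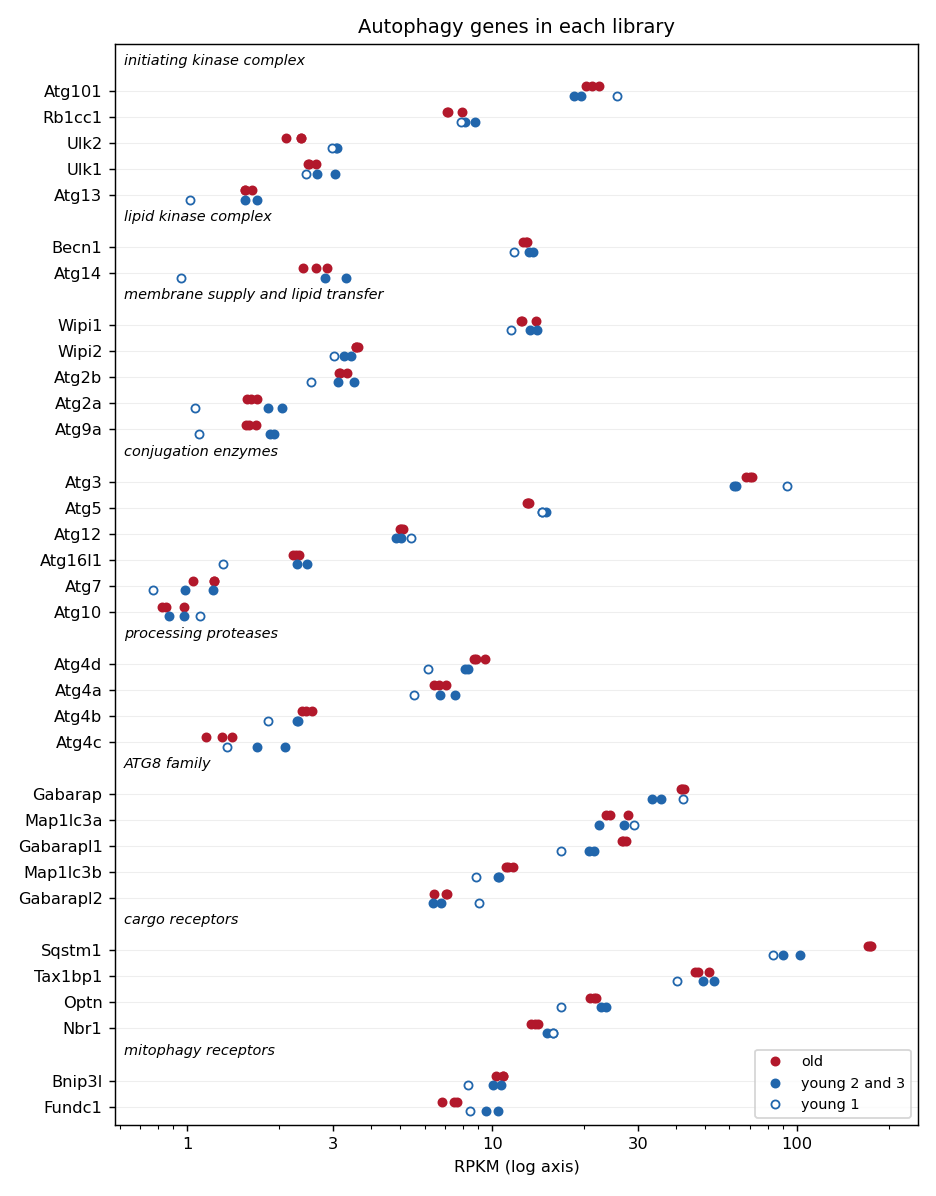
RPKM of each member in each library on a log axis, grouped by role, with old libraries in red above and young libraries in blue below, young replicate 1 as an open circle. Levels run from 0.772 RPKM (Atg7 in young replicate 1) to 175 RPKM (Sqstm1 in old replicate 3), and young replicate 1 is the lowest library in 20 genes and the highest in 6.

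The conjugation enzymes attach ATG12 to ATG5 and ATG8 proteins to lipid. Of 6 genes 5 were tested and none was called. Atg3, the enzyme that hands ATG8 proteins to the lipid, was the second most abundant member in 5 of 6 libraries. It was at 70.3, 71.2 and 68.2 RPKM in old and 92.5, 62.2 and 62.8 RPKM in young, so the old libraries lay between young replicate 1 and the other two young libraries. For Atg3 the log2 fold change was -0.03 ± 0.17 with all 6 libraries (SE, limma adjusted p = 0.991) and turned to 0.16 ± 0.05 without young replicate 1 (SE, limma adjusted p = 0.0415). Atg5 was at 13.2, 13 and 13.1 RPKM in old and 14.6, 14.6 and 15 RPKM in young, without overlap. For Atg5 it was -0.16 ± 0.08 (SE, limma adjusted p = 0.555), and -0.16 ± 0.05 without young replicate 1 (SE, limma adjusted p = 0.0435). Atg12, which is joined to ATG5, averaged 5.03 ± 0.0614 RPKM in old and 5.09 ± 0.302 RPKM in young (SD, n = 3 each). Atg16l1, which brings the ATG12-ATG5 pair to the membrane, averaged 2.28 ± 0.0532 RPKM in old and 2.03 ± 0.626 RPKM in young. Atg7, the enzyme that activates ATG12 and the ATG8 proteins, averaged 1.16 ± 0.102 RPKM in old and 0.991 ± 0.223 RPKM in young (SD, n = 3 each).

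The ATG4 proteases trim ATG8 proteins before conjugation and release them afterwards. None of the 4 genes was called, and they did not share a direction. Atg4d was at 8.72, 9.48 and 8.86 RPKM in old and 6.14, 8.13 and 8.35 RPKM in young, without overlap. For Atg4d the log2 fold change was 0.24 ± 0.13 (SE, limma adjusted p = 0.624). Its exons share 19.3% of its length with Kri1 on the opposite strand. Atg4c was at 1.15, 1.3 and 1.4 RPKM in old and 1.35, 2.09 and 1.7 RPKM in young, where young replicate 1 lay inside the old range. For Atg4c it was -0.24 ± 0.12 (SE, limma adjusted p = 0.576), and -0.34 ± 0.09 without young replicate 1 (SE, limma adjusted p = 0.0276). Atg4b, the most active of the proteases on LC3 in mammalian cells, averaged 2.47 ± 0.0953 RPKM in old and 2.15 ± 0.266 RPKM in young, without overlap, and Atg4a averaged 6.73 ± 0.318 RPKM in old and 6.61 ± 1.01 RPKM in young (SD, n = 3 each).

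Bnip3l and Fundc1 encode receptors in the outer mitochondrial membrane that bind ATG8 proteins directly and mark mitochondria for removal, among others in low oxygen. Fundc1 was at 7.49, 6.83 and 7.67 RPKM in old and 8.43, 10.5 and 9.54 RPKM in young, and every old library lay below every young library. Its log2 fold change was -0.33 ± 0.11 (SE, limma adjusted p = 0.31), and -0.40 ± 0.07 without young replicate 1 (SE, limma adjusted p = 0.00911). Bnip3l was at 10.9, 10.3 and 10.9 RPKM in old and 8.36, 10.7 and 10 RPKM in young, with overlapping groups.

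The number of members called depended on which library was left out. Without young replicate 1, 4 of 32 members were higher in old (Sqstm1, Gabarapl1, Gabarap and Atg3) and 4 were lower (Fundc1, Atg4c, Ulk2 and Atg5), at a limma adjusted p under 0.05. In that fit 13.2% of all tested genes were higher and 19.4% lower. The 24 other tested members were not called in that fit. Without young replicate 2 Sqstm1 remained the 1 member called, while limma called 0 members when young replicate 3, or any of the old libraries, was left out. These fits had 3 residual degrees of freedom, and the fit of all 6 libraries had 4. Young replicate 1 was nearer to the old mean than to the mean of the other young libraries in 21 of 32 members, and in 67.4% of all tested genes. It lay outside the range of the other 5 libraries in 25 of 32 members, and in 77% of all tested genes. The SD between young libraries was larger than that between old libraries in 31 of 33 members, as it was in 87% of tested genes. The part of depth or RNA quality in these differences was not tested.

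**Figure D5:**
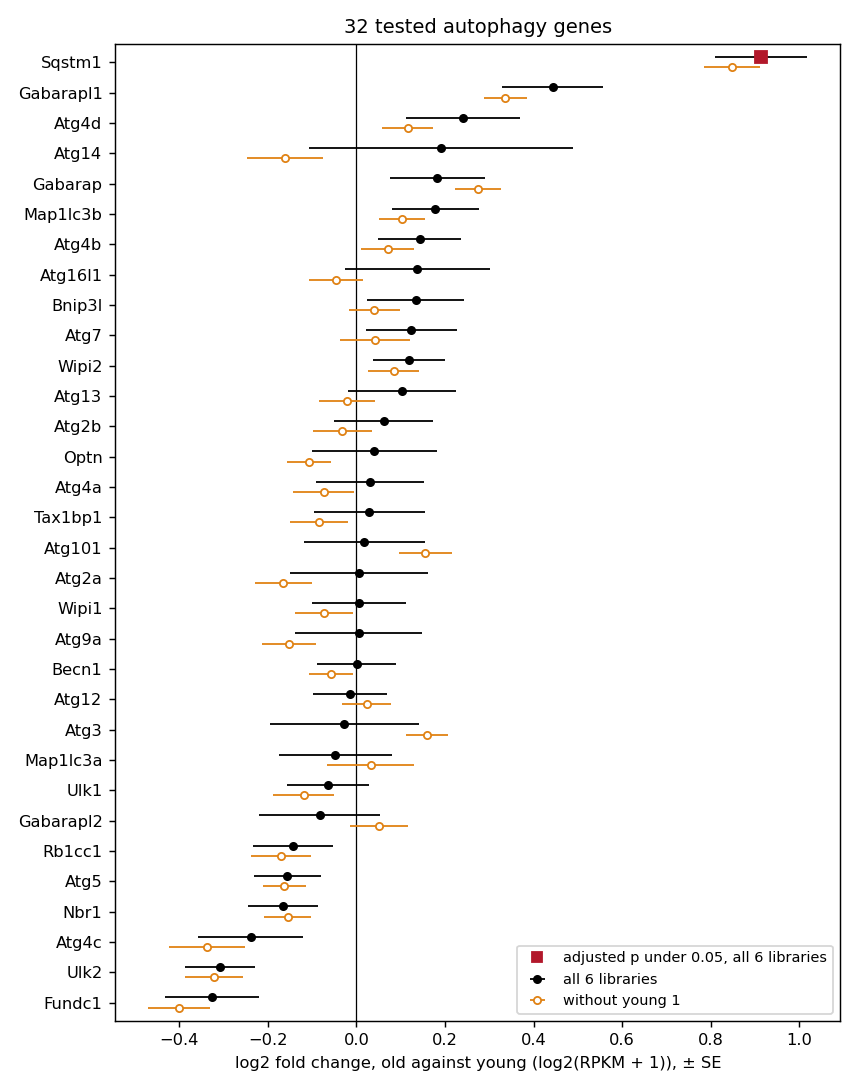
Log2 fold change (old against young, log2(RPKM + 1), x axis) ± SE for each of the 32 tested members, with all 6 libraries in black and without young replicate 1 as open orange circles. The red square marks Sqstm1, the member called with all 6 libraries, and without young replicate 1 the sign turns in 15 members.

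Of 70 listed genes of the pathway outside the 33, 63 were tested. Of these, 1 was called higher in old and 0 were called lower, beside 1.47% and 0.0999% of all tested genes. The log2 fold change was above 0 in 34 of the 63, beside 51.2% of all tested genes, and its median was 0.01. The gene called higher was Bnip3, a mitophagy receptor related to Bnip3l and a known target of the hypoxia factor HIF1. Bnip3 was at 12.7 ± 0.556 RPKM in old and 7.63 ± 0.548 RPKM in young (SD, n = 3 each). The log2 rise of Bnip3 was 0.67 ± 0.09 (SE, limma adjusted p = 0.0224). This call was lost under 2 other scalings between libraries (limma adjusted p = 0.0577 and 0.138) and without each library except young replicate 1. Bnip3 shares 22.3% of its exon length with Gm45507 on the opposite strand. Among 17 tested receptors and adaptors of this list, Nufip1, described as a receptor for ribosomes, was at 13.2 ± 0.482 RPKM in old and 10.9 ± 0.428 RPKM in young. Ccpg1, a receptor for the endoplasmic reticulum, was at 16.3 ± 0.787 RPKM in old and 22.4 ± 3.73 RPKM in young (limma adjusted p = 0.308 and 0.317 for Nufip1 and Ccpg1). Without young replicate 1 Nufip1 was called higher in old and Ccpg1 lower (limma adjusted p = 0.0192 and 0.00143). In that fit 6 of the 63 genes were called higher and 8 lower, beside 13.2% and 19.4% of all tested genes. The exons of Ccpg1 share 42.9% of its length with Gm44503 on the same strand, so its level is uncertain.

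Of 7 tested transcription factors and regulators of autophagy genes, none was called. In 4 of them, Nfe2l2, Tfe3, Foxo3 and Keap1, all old libraries were above all young ones, as in 10.6% of all tested genes. Nfe2l2, which encodes NRF2, a known activator of Sqstm1, had the smallest p-value among them. It was at 18.2 ± 1.19 RPKM in old and 13.6 ± 0.64 RPKM in young (SD, n = 3 each). Its log2 fold change was 0.39 ± 0.09 (SE, limma adjusted p = 0.132), and 0.39 without young replicate 1 (limma adjusted p = 0.0105). Tfe3, a factor known to activate lysosomal and autophagy genes, averaged 1.45 ± 0.0922 RPKM in old and 1.09 ± 0.312 RPKM in young. Foxo3, another known activator of autophagy genes, averaged 9.34 ± 0.122 RPKM in old and 7.93 ± 1.16 RPKM in young (SD, n = 3 each, limma adjusted p = 0.611 and 0.625 for Tfe3 and Foxo3). Keap1 averaged 11.9 ± 0.529 RPKM in old and 10.7 ± 0.323 RPKM in young (SD, n = 3 each). None of the 6 genes around the lipid kinase, 6 of membrane supply, 12 of fusion with lysosomes or 15 of nutrient and energy sensing that were tested was called. Ambra1, a regulator of the lipid kinase complex, averaged 4.13 ± 0.147 RPKM in old and 3.39 ± 0.669 RPKM in young without overlap (SD, n = 3 each, limma adjusted p = 0.65). Uvrag, a subunit of that complex, averaged 2.93 ± 0.181 RPKM in old and 2.46 ± 0.633 RPKM in young, and Pik3c3, its kinase, 4.71 ± 0.166 RPKM in old and 5.05 ± 0.144 RPKM in young without overlap (limma adjusted p = 0.805 and 0.884 for Uvrag and Pik3c3). Vmp1, a membrane protein of the endoplasmic reticulum needed for autophagosomes, averaged 24.3 ± 1.21 RPKM in old and 20.3 ± 1.46 RPKM in young (limma adjusted p = 0.384). Without young replicate 1 Vmp1 was called higher in old (limma adjusted p = 0.0474). Vps11, a subunit of the complex that tethers autophagosomes to lysosomes, averaged 3.41 ± 0.19 RPKM in old and 2.61 ± 0.384 RPKM in young (limma adjusted p = 0.377). The next smallest p-values of the membrane supply list belonged to Wdr45, at 1.08 ± 0.0541 RPKM in old and 0.934 ± 0.083 RPKM in young without overlap, and Atg16l2, at 1.15 ± 0.0806 RPKM in old and 1.03 ± 0.349 RPKM in young (limma adjusted p = 0.751 and 0.946 for Wdr45 and Atg16l2). Those of the fusion list belonged to Ykt6, a membrane fusion protein, at 22.7 ± 0.572 RPKM in old and 24.8 ± 1.91 RPKM in young, and Rab7, a GTPase of late endosomes, at 110.3 ± 3.37 RPKM in old and 93.8 ± 26.6 RPKM in young (limma adjusted p = 0.814 and 0.827 for Ykt6 and Rab7). In nutrient and energy sensing, Akt1s1, a subunit of the mTOR complex that restrains autophagy, was at 12.9 ± 1.11 RPKM in old and 11.4 ± 1.51 RPKM in young. Tsc1, an inhibitor of that complex, was at 3.48 ± 0.173 RPKM in old and 2.96 ± 0.744 RPKM in young. Prkaa1, a catalytic subunit of the energy sensor AMPK, was at 6.97 ± 0.315 RPKM in old and 7.69 ± 0.74 RPKM in young (limma adjusted p = 0.792, 0.817 and 0.823 for Akt1s1, Tsc1 and Prkaa1).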

How the data were processed

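Messenger RNA of 3 old and 3 young libraries of apoptotic mouse osteoblasts was measured by sequencing. Per the submitters' processing notes, fastp, STAR, HTSeq, edgeR and the build mm10 were used, with no versions. Annotation and strand setting are not stated there. The authors deposited RPKM, scaled to gene length and to the reads of each library. Whole reads could be recovered from them within 0.01 of a read for 100% of values. Among genes of 1 to 5 reads, 77.5 to 79.3% had an even number, so reads are not independent molecules. In a gene of 1 kilobase 3 reads are 0.0355 to 0.0462 RPKM, which covers counting error only. No library was a copy of another (chi-square per degree of freedom of 9.51 or more between replicates).

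Old and young were compared with limma (version 3.58.1, R version 4.3.3) after log2(RPKM + 1). The model held the group alone, variances were moderated with a trend on mean level, and tests were two-sided. The procedure was tested on simulated reads in which no library stood apart, unlike young replicate 1 here. The log2(RPKM + 1) scale understates changes of genes with low values. Genes entered with at least 1 RPKM in at least 3 libraries. Members and lists were chosen with earlier results of these data known. Members were described in full when called, among the 10 of smallest p or the 6 of highest mean, and other pathway genes when called or among the 3 of smallest p in their list. Keap1, Tfeb, Atf4 and Hif1a were named outside that rule, after their values were seen. All 33 members overlapped their RefSeq position on GRCm38.p6, the assembly that mm10 names. Alternatives were 2 pseudocounts, 2 filters, 2 scalings, subtraction of a loess curve on gene length (span 0.5) per library, no variance trend, library weights, the replicate number as a block, voom on the recovered reads, and leaving out each library.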

Additional observations from a re-analysis of the deposited data

How the results depend on the processing

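Sqstm1 was called, and higher in old, under both other pseudocounts, both other filters, both other scalings, removal of the length trend, no variance trend, library weights and voom on the recovered reads. Its log2 fold change ranged from 0.85 to 0.99 over all alternatives. Library weights, which gave young replicate 1 a weight of 0.0425, called 4 members higher (Sqstm1, Gabarapl1, Gabarap and Atg3) and 6 lower (Ulk2, Fundc1, Atg4c, Atg5, Atg9a and Optn), 2119 of all tested genes higher and 2957 lower, and 9 other pathway genes higher and 10 lower. The replicate number as a block called 0 members (Sqstm1 at a limma adjusted p of 0.105), 82 of all genes higher and 0 lower, and 0 other pathway genes. The numbers are not known to pair the libraries: deviations of same-numbered libraries from their group means correlated at -0.0257, -0.436 and 0.329 across genes, and not every library correlated best with its own number. A mean RPKM of at least 5 left 99 genes higher, removal of the length trend gave 25 lower, and both scalings called 0 other pathway genes, so that Bnip3 lost its call. Voom called 163 genes higher and 8 lower. With 1 library left out, 0 to 4 members were higher and 0 to 4 lower, 80 to 1589 of all genes higher and 0 to 2329 lower, and 0 to 6 other pathway genes higher and 0 to 8 lower. The highest counts were those without young replicate 1. With library weights 41.7% of calls over all genes were higher in old, and without young replicate 1 40.6%, beside 93.7% with all 6 libraries at equal weight. The members whose sign turned had log2 fold changes of -0.08 (Gabarapl2) to 0.19 (Atg14) with all 6 libraries, and the cause was not tested. With median-of-ratios scaling the log2 fold change turned sign in Becn1 (-0.0077) and Wipi1 (-0.0026). With upper-quartile scaling the log2 fold change turned sign in Atg101 (-0.012), Becn1 (-0.028), Atg9a (-0.0055), Atg2a (-0.0031) and Wipi1 (-0.022). With library weights the log2 fold change turned sign in Becn1 (-0.058), Atg14 (-0.054), Atg9a (-0.17), Atg2a (-0.14), Wipi1 (-0.12), Atg3 (0.15), Atg12 (0.047), Atg16l1 (-0.0052), Atg4a (-0.042), Optn (-0.13), Tax1bp1 (-0.047) and Atg16l2 (-0.065). With 1 library left out the sign turned in Atg13 (-0.021 to 0.19), Atg101 (-0.069 to 0.16), Becn1 (-0.058 to 0.037), Atg14 (-0.16 to 0.41), Atg9a (-0.15 to 0.091), Atg2a (-0.17 to 0.12), Atg2b (-0.032 to 0.14), Wipi1 (-0.072 to 0.064), Atg3 (-0.12 to 0.16), Atg12 (-0.047 to 0.023), Atg16l1 (-0.046 to 0.25), Atg4a (-0.074 to 0.12), Map1lc3a (-0.15 to 0.032), Gabarapl2 (-0.17 to 0.051), Optn (-0.11 to 0.13), Tax1bp1 (-0.084 to 0.11) and Atg16l2 (-0.046 to 0.20), as the lowest and highest log2 fold change.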
